A study of Mus musculus with 6 samples.

Results

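The genes described here are 29 mouse genes of cholesterol and fatty acid synthesis, taken by name from a table of counts for 55385 mouse genes. All 29 were found in the table, 1 row each, and all 29 passed the filter on low counts, among 18504 genes tested in all. The libraries were made from PDVC57 cells, a line established from mouse skin squamous carcinoma, and each had 1 of 2 genotypes, Sox2 KO (knockout, 3 libraries) or Sox2 overexpression (3 libraries). Per the series' design text, the carcinoma cells were recovered from grafted tumours as Sox2-low and Sox2-high cells, to find what this stem cell transcription factor turns on that could act on neutrophils. An unmodified line was not analysed here, so each difference is overexpression over knockout and neither group is a baseline. The labels do not say whether a genotype is 1 clone, whether tumours were pooled, or whether the replicates came from separate animals, so p-values measure only the spread between these libraries.

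Cells make cholesterol from acetyl-CoA through mevalonate, farnesyl diphosphate, squalene and lanosterol. The transcription factors SREBP1 and SREBP2 (genes Srebf1 and Srebf2) turn on these enzymes when sterol in the endoplasmic reticulum is low: SCAP carries them to the Golgi for cleavage, and the INSIG proteins hold SCAP back when sterol is plentiful. SREBP1 also drives fatty acid synthesis, in which ATP citrate lyase and acetyl-CoA carboxylase feed fatty acid synthase. In skin, keratinocytes make much of the cholesterol, fatty acid and ceramide of the epidermal barrier themselves.

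Library totals lay between 31247976 and 38543221 counts. The targeted gene followed the labels: Sox2 stood at 0.685 to 1.44 CPM (counts scaled to a common library size, normalized by TMM) in the knockout libraries and at 78.3 to 128 CPM in the overexpression libraries. The sample labels name the line but no cell type. All 16 of 16 epithelial markers had counts enough to be tested, and their summed level was 5452 to 8630 CPM with knockout and 12100 to 17050 CPM with overexpression. At an adjusted p under 0.05 in edgeR, 10 of the 16 were higher and 0 lower, where 13.6% of all tested genes were higher. Fibroblast markers moved the other way. All 10 were lower with overexpression past the same threshold, where 18.0% of all tested genes were lower. Their summed level was 53170 to 81040 CPM in the knockout libraries and 246 to 388 CPM in the overexpression libraries. In bulk RNA, the number of cells of a type, the RNA per cell and which cells made a transcript cannot be told apart. The main results are therefore given both on the TMM scale and after the libraries were scaled to the 16 epithelial genes.

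The RefSeq promoter windows (GRCm38.p6), from 250 bases before to 50 bases after an annotated start, were available for 25 of the 29 genes. Fdps, Fdft1, Sqle and Stard4 had none, and of these Fdps, Fdft1 and Sqle rose with overexpression. Windows were searched on both strands for TCACNCCAC, a form of the sterol regulatory element that SREBP binds, and for CCAAT, the NF-Y box. GGGCGG, bound by Sp1, and ACAATG, a form of the core bound by SOX factors, were searched for too. Of the 25 genes, 22 held CCAAT and 22 held GGGCGG in at least 1 window. Among the 12291 tested genes with a window, 42.3% held CCAAT and 63.2% held GGGCGG, and over all 32851 windows the shares were 37.4% and 35.7%. The sterol element was found in 1 of the 25 genes, Hmgcs1, and in 1.39% of the tested genes with a window (1.24% of all windows). Its shorter core CACNCCAC was found in 3 of the 25, Hmgcs1, Insig1 and Acat2, and in 7.65% of those tested genes (6.24% of all windows). ACAATG was found in 1 of the 25, Srebf1, and in 9.73% of those tested genes (12.6% of all windows). A match is a description of the letters and not a bound site. The stretches printed here are those of Hmgcs1 and Acat2, which hold a sterol motif before their start and of which Acat2 rose with overexpression, and of Srebf2, Nsdhl and Ebp, which rose and hold CCAAT but neither form of the sterol motif. They run 5′ to 3′ on the gene's strand, stop before the first transcribed base of either annotation, and carry CCAAT (or ATTGG, its reverse complement), the sterol element and its core in capitals.
Hmgcs1 (chr13:119690101-119690350, plus strand): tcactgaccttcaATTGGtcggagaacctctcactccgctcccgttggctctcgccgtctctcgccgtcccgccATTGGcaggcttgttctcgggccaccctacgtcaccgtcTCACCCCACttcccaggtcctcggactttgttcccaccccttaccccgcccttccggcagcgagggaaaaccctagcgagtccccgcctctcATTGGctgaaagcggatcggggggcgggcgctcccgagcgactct
Acat2 (chr17:12960748-12960975, minus strand): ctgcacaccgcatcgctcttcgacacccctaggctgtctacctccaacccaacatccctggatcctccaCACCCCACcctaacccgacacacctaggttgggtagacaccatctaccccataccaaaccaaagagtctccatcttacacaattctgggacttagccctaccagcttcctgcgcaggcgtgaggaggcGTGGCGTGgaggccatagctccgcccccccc
Srebf2 (chr15:82147019-82147180, plus strand): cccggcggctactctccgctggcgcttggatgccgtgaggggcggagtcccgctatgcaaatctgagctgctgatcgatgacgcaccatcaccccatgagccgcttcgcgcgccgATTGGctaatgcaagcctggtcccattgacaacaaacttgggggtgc
Nsdhl (chrX:72918271-72918520, plus strand): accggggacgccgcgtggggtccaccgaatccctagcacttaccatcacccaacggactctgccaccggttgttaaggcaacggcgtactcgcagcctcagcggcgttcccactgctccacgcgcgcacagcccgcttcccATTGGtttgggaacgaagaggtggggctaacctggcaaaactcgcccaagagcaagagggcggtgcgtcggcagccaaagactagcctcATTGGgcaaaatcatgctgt
Ebp (chrX:8193513-8193762, minus strand): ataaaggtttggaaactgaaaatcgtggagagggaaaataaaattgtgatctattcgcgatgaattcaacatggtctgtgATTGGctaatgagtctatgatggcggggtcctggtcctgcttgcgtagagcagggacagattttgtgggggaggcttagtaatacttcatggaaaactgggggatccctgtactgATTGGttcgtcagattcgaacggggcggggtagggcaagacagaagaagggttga
The core in Acat2 occurs on both strands, and the sterol element of Hmgcs1 begins 137 bases before its RefSeq start.

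Sterol synthesis genes were partly higher with Sox2 overexpression, and no member was lower past the threshold. In the edgeR quasi-likelihood test, 12 of 29 members had an adjusted p under 0.05, all 12 of them higher, where 13.6% of all tested genes were higher and 18.0% lower. At an unadjusted p under 0.05, 2 members were lower, Acss2 and Acaca, and DESeq2 also called 0 lower. The median log2 fold change of the 29 was 0.43, against -0.016 for all tested genes. For 13 members the overexpression libraries all exceeded the knockout libraries, as they did for 24.4% of tested genes, and for 3 members they all fell short of them, as for 26.5% of tested genes. The 12 were Pmvk, Mvd, Fdps, Fdft1 and Acat2 of the early pathway, Sqle, Msmo1, Nsdhl and Ebp of the late pathway, the regulators Srebf1 and Srebf2, and Acly, which supplies acetyl-CoA. Scaled to the epithelial genes, 0 of the 29 members were higher and 11 were lower past the threshold, where 2.03% of tested genes were higher and 58.9% lower; at an unadjusted p under 0.05 edgeR also gave 0 higher members on this scale. That scaling moved the median over all tested genes to -1.055 on the log2 scale and that of the members to -0.64. The 12 then lay between -0.51 (Acly) and 0.62 (Fdps).

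**Figure D1:**
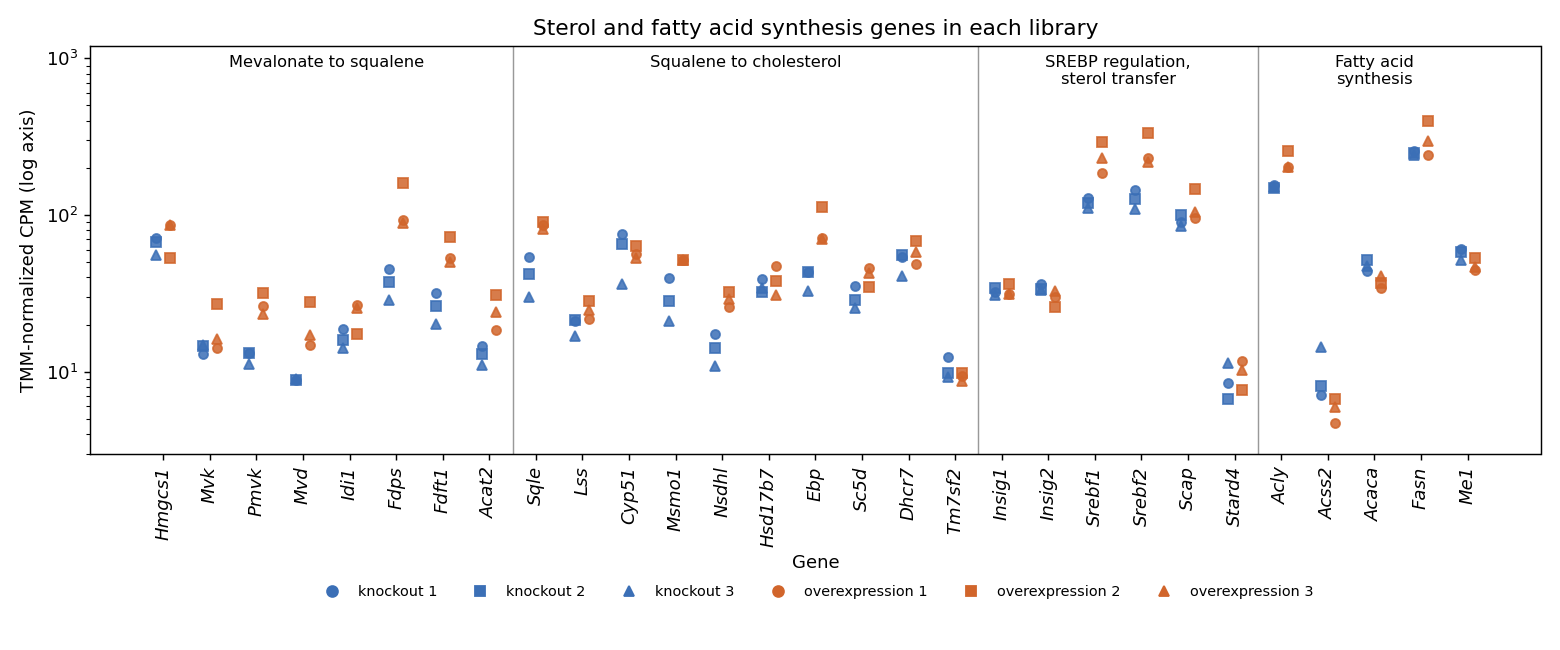
TMM-normalized CPM (log axis) of the 29 genes in each of the 6 libraries, by step of the pathway; blue points are knockout and orange points overexpression libraries, and the marker shape gives the replicate number. Orange points lie wholly above blue ones for 13 genes, among them Fdps, Srebf1 and Srebf2, and wholly below for Insig2, Acss2 and Acaca.

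The early steps, from acetyl-CoA to squalene, had the largest median of the 4 groups of members, 1.023 on the log2 scale. Of their 8 genes 5 were higher, where 13.6% of all tested genes were. After epithelial scaling the branch median was -0.0019, with 0 of the 8 higher and 1 lower past the threshold. On that scale 2.03% of all tested genes were higher and 58.9% lower. Fdps encodes farnesyl diphosphate synthase, which makes the precursor shared by sterols and prenylated proteins (chromosome 3, 89093588 to 89101959). It stood at 44.9, 37.1 and 28.6 CPM in knockout replicates 1, 2 and 3 and at 92.4, 159 and 88.6 CPM in overexpression replicates 1, 2 and 3. The groups did not overlap, and overexpression replicate 2 stood well above the other two of its group. The fold was 3.07 (log2 fold change 1.62, standard error 0.27, adjusted p = 0.00194), the largest among the members, and the log2 fold change was 0.62 (adjusted p = 0.0899) after epithelial scaling. Several near-identical copies of the Fdps transcript are annotated, and each was listed with at most 0.181% as many counts. The one with 0.181%, Gm43738, lies at the same locus, and its exons share 1124 bases with those of Fdps on the same strand. Exons of Tm7sf2 and Srebf1 also overlap a gene on the same strand, Vps51 and Mir6922. How reads of these pairs were divided was not tested.

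Fdft1, squalene synthase, commits farnesyl diphosphate to sterols (chromosome 14, 63145150 to 63179578). Its levels were 32.0, 26.1 and 20.1 CPM with knockout and 53.5, 72.4 and 49.8 CPM with overexpression. The groups did not overlap, and the difference passed (log2 fold change 1.17, standard error 0.22, adjusted p = 0.00383). Exons of Fdft1 share 774 bases with those of Ctsb on the other strand, as exons of 8 other members do with a gene on the other strand (Hmgcs1, Idi1, Lss, Cyp51, Srebf1, Scap, Acss2 and Me1), and the strand setting of the counting is not given in the sources used here. Pmvk, phosphomevalonate kinase, was tight in both groups, with 13.1, 13.2 and 11.2 CPM with knockout and 26.3, 31.6 and 23.4 CPM with overexpression (log2 fold change 1.12, standard error 0.18, adjusted p = 0.00166). Mvd, the decarboxylase that yields isopentenyl diphosphate, was at 8.85, 8.86 and 8.94 CPM with knockout. With overexpression it was at 14.9, 27.8 and 17.0 CPM, so that replicate 2 again stood highest, and the log2 fold change was 1.16 (standard error 0.25, adjusted p = 0.0076). Acat2, the cytosolic thiolase at the head of the pathway, had 14.5, 13.0 and 11.0 CPM with knockout and 18.4, 31.0 and 23.9 CPM with overexpression. The groups did not overlap, and it passed at a log2 fold change of 0.93 (standard error 0.22, adjusted p = 0.0136). Acat3, whose transcript matches that of Acat2 at 97.7% over 1477 bases, was listed with 6.96% as many counts. Reads of the pair could therefore have been divided between them. Idi1 also has a near-identical copy, Gm13502, which matches it at 100% over 684 bases and was listed with 3.47% as many counts. Copies of Fdft1, Acaca and Me1 were each listed with at most 0.582% as many counts.

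The neighbouring genes of the same branch, Hmgcs1, Idi1 and Mvk, did not pass the test. Hmgcs1, the synthase that makes HMG-CoA and the gene with the sterol element printed above, had 70.9, 66.9 and 55.3 CPM with knockout and 86.0, 53.0 and 85.7 CPM with overexpression. Overexpression replicate 2 lay below every knockout library, while replicates 1 and 3 lay above them, and the log2 fold change of 0.22 did not pass (standard error 0.21, adjusted p = 0.459). Idi1, which isomerizes isopentenyl diphosphate, was likewise lowest in overexpression replicate 2, with 18.7, 16.0 and 14.2 CPM with knockout and 26.7, 17.4 and 25.7 CPM with overexpression. Replicate 2 fell inside the knockout range and replicates 1 and 3 above it. Its log2 fold change was 0.52 (adjusted p = 0.0966). Without overexpression replicate 2, Hmgcs1 and Idi1 passed the threshold, with adjusted p-values of 0.046 and 0.0174. Mvk, mevalonate kinase, was the reverse case: 13.0, 14.7 and 14.9 CPM with knockout and 14.2, 26.9 and 16.2 CPM with overexpression, with replicate 2 alone well above the rest. It did not pass (log2 fold change 0.43, adjusted p = 0.225), and leaving out that library left a log2 fold change of 0.12.

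Between squalene and cholesterol, 4 of 10 genes were higher, where 13.6% of all tested genes were, and the branch median was 0.40. Sqle encodes squalene epoxidase, a rate-controlling oxygenase of the pathway (chromosome 15, 59315077 to 59331192). It stood at 53.8, 42.1 and 29.8 CPM with knockout and at 86.9, 89.8 and 81.0 CPM with overexpression. The overexpression libraries were close together and all above the knockout libraries, which spread more widely (log2 fold change 1.04, standard error 0.21, adjusted p = 0.00587). Nsdhl and Msmo1 work in turn in the removal of methyl groups from the lanosterol skeleton. Nsdhl had 17.4, 14.2 and 10.9 CPM with knockout and 25.8, 32.3 and 29.2 CPM with overexpression (log2 fold change 1.04, standard error 0.21, adjusted p = 0.00504). Msmo1 had 39.6, 28.3 and 21.1 CPM with knockout and 51.5, 51.7 and 51.8 CPM with overexpression. The groups of Msmo1 did not overlap, but its log2 fold change of 0.80 (standard error 0.22, adjusted p = 0.0243) lost the threshold without knockout replicate 2 or 3 (adjusted p = 0.0865 and 0.0691) and without overexpression replicate 2 or 3 (0.0548 and 0.0583). Over its alternatives the adjusted p of Msmo1 ranged from 0.00251 to 0.61. Ebp, the isomerase that shifts the ring double bond, had 43.4, 43.2 and 32.7 CPM with knockout and 71.5, 113 and 70.1 CPM with overexpression. Its log2 fold change was 1.09 (standard error 0.22, adjusted p = 0.00578).

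The other 6 late genes did not pass. Cyp51, the lanosterol demethylase, stood at 75.4, 65.2 and 36.1 CPM with knockout and at 56.1, 63.7 and 53.3 CPM with overexpression. The overexpression libraries fell inside the knockout range, and the log2 fold change was -0.029 (standard error 0.25, adjusted p = 0.94). Dhcr7, which performs a final reduction to cholesterol, had 54.3, 55.4 and 40.9 CPM with knockout and 48.5, 67.9 and 58.1 CPM with overexpression. Overexpression replicate 1 lay inside the knockout range (log2 fold change 0.21, adjusted p = 0.407). Lss, lanosterol synthase, was higher in each overexpression library (21.8 to 28.1 CPM) than in each knockout library (17.0 to 21.2 CPM), although the difference was small and its adjusted p was 0.181. Sc5d, the desaturase before Dhcr7, had 35.3, 28.5 and 25.5 CPM with knockout and 45.6, 34.9 and 42.9 CPM with overexpression. Its adjusted p was 0.0797, and 0.0349 without overexpression replicate 2. The ketoreductase Hsd17b7 had 38.9, 32.3 and 34.3 CPM with knockout and 47.5, 37.7 and 31.0 CPM with overexpression (log2 fold change 0.14, adjusted p = 0.601). Tm7sf2, a sterol reductase, had 12.5, 9.76 and 9.24 CPM with knockout and 9.34, 9.74 and 8.78 CPM with overexpression (log2 fold change -0.18, adjusted p = 0.536). The groups of both genes overlapped. After epithelial scaling, Cyp51, Hsd17b7, Dhcr7 and Tm7sf2 were lower past the threshold, with log2 fold changes of -0.98, -0.88, -0.80 and -1.19. These were 4 of the 10 genes of the branch, where 58.9% of all tested genes were lower on that scale.

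Of the 6 genes of SREBP regulation and sterol transfer, both SREBP genes rose, and the other 4 did not pass the test. Among all tested genes 13.6% were higher. Srebf1 (chromosome 11, 60199089 to 60222581) stood at 129, 119 and 110 CPM with knockout and at 184, 294 and 232 CPM with overexpression. Srebf2 (chromosome 15, 82147181 to 82205379) stood at 144, 126 and 110 CPM with knockout and at 231, 331 and 219 CPM with overexpression. For both genes the groups were clearly apart, with knockout replicate 3 lowest and overexpression replicate 2 highest. The folds were close in size, 1.99 for Srebf1 (log2 fold change 0.99, standard error 0.19, adjusted p = 0.00458) and 2.06 for Srebf2 (1.04, standard error 0.20, adjusted p = 0.00451). Relative to the epithelial genes their log2 fold changes were -0.054 (adjusted p = 0.881) and 0.022 (adjusted p = 0.952).

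Scap, the escort that senses sterol, had 90.3, 99.7 and 84.8 CPM with knockout and 95.6, 148 and 105 CPM with overexpression. The libraries overlapped, and the log2 fold change of 0.34 did not pass (adjusted p = 0.199). Insig1 retains SCAP and, like the enzymes above, is itself induced by SREBP. Its difference was the smallest of the 6 genes of this branch, with 32.4, 34.1 and 30.9 CPM with knockout and 31.2, 36.5 and 31.2 CPM with overexpression (log2 fold change 0.023, standard error 0.14, adjusted p = 0.921). Insig2, its counterpart that is less dependent on SREBP, had 36.5, 33.8 and 33.0 CPM with knockout and 29.9, 25.7 and 32.5 CPM with overexpression. The overexpression libraries of Insig2 were all slightly lower, but the log2 fold change of -0.23 did not pass (standard error 0.15, adjusted p = 0.285). After epithelial scaling both were lower, by log2 fold changes of -1.014 for Insig1 (adjusted p = 0.00969) and -1.27 for Insig2 (adjusted p = 0.00207). On that scale 58.9% of all tested genes were lower, with a median of -1.055. Stard4, a sterol carrier between membranes, was low and scattered, with 6.68 to 11.4 CPM with knockout and 7.64 to 11.6 CPM with overexpression (adjusted p = 0.703).

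**Figure D2:**
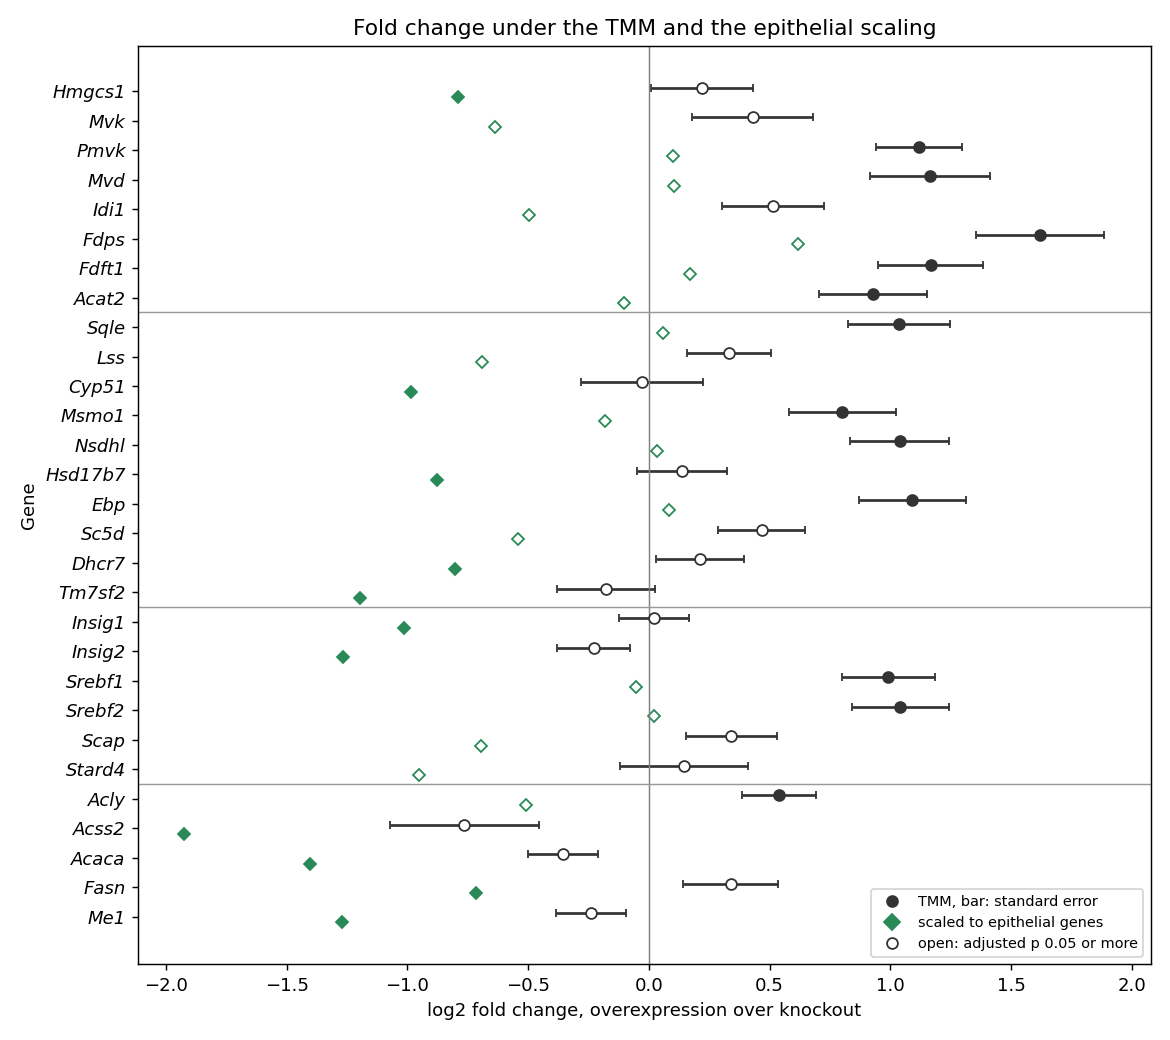
Log2 fold change (overexpression over knockout) of each gene under TMM (black circles, bars are 1 standard error) and after scaling to the 16 epithelial genes (green diamonds, no error drawn), filled where the adjusted p is under 0.05. Under TMM 12 genes are filled, all on the positive side, and under the epithelial scaling 11 are filled, all on the negative side.

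Of the 5 genes of fatty acid synthesis and its supply 1 was higher, where 13.6% of all tested genes were. The branch median was -0.24 on the log2 scale. Acly, which splits citrate into cytosolic acetyl-CoA for both pathways (chromosome 11, 100476353 to 100528000), had 155, 149 and 150 CPM with knockout and 201, 256 and 203 CPM with overexpression. The groups did not overlap and the log2 fold change was 0.54 (standard error 0.15, adjusted p = 0.027). It lost the threshold without knockout replicate 1, 2 or 3 (adjusted p = 0.0713, 0.0945 and 0.0856), and its adjusted p ranged from 0.00658 to 0.148 over the alternatives. Fasn, fatty acid synthase, stood at 255, 247 and 241 CPM with knockout and 243, 398 and 298 CPM with overexpression. Overexpression replicate 1 lay among the knockout libraries, and the log2 fold change of 0.34 did not pass (standard error 0.20, adjusted p = 0.22).

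The carboxylase Acaca, whose malonyl-CoA is the building block for Fasn, leaned the other way, with 43.8, 51.9 and 46.9 CPM with knockout and 34.2, 36.7 and 40.7 CPM with overexpression. Every overexpression library was lower, yet the log2 fold change of -0.35 did not pass (standard error 0.15, adjusted p = 0.0979). Acss2 makes acetyl-CoA from acetate, and its 7.06, 8.07 and 14.3 CPM with knockout were all above the 4.67, 6.70 and 5.97 CPM with overexpression. Its log2 fold change was -0.76 (standard error 0.31, adjusted p = 0.0944), with knockout replicate 3 well above its group. Me1, the malic enzyme that supplies NADPH, had 60.7, 57.7 and 51.5 CPM with knockout and 44.2, 53.0 and 46.6 CPM with overexpression. Only overexpression replicate 2 reached into the knockout range, and the log2 fold change was -0.24 (adjusted p = 0.238). After epithelial scaling Acaca, Acss2, Me1 and Fasn were lower past the threshold, at -1.404, -1.92, -1.27 and -0.72. On that scale 58.9% of all tested genes were lower, and the branch median was -1.27 beside -1.055 for all tested genes.

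Within each group the libraries were unevenly ranked for these genes. Knockout replicate 1 was the highest of its group for 19 of 29 members, where it was highest for 32% of all tested genes. Overexpression replicate 2 was the highest of its group for 21 of 29 members, where it was highest for 44.9% of all tested genes, and knockout replicate 3 was the lowest of its group for 22 of 29, where it was lowest for 36.3% of all tested genes. The summed level of the 29 genes was 1569, 1469 and 1305 CPM in knockout replicates 1, 2 and 3 and 1908, 2541 and 2006 CPM in overexpression replicates 1, 2 and 3. Thus the totals of the groups did not overlap. Knockout replicate 3 also had the lowest summed epithelial level, 5452 CPM against 8627 and 8630 CPM in replicates 1 and 2, and the highest summed levels of white blood cell markers (117 CPM) and endothelial markers (68.1 CPM). The part of these in the result was not tested. Without knockout replicate 3, 10 members were higher, and without overexpression replicate 2, 14 were, of which 11 were among the 12.

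**Figure D3:**
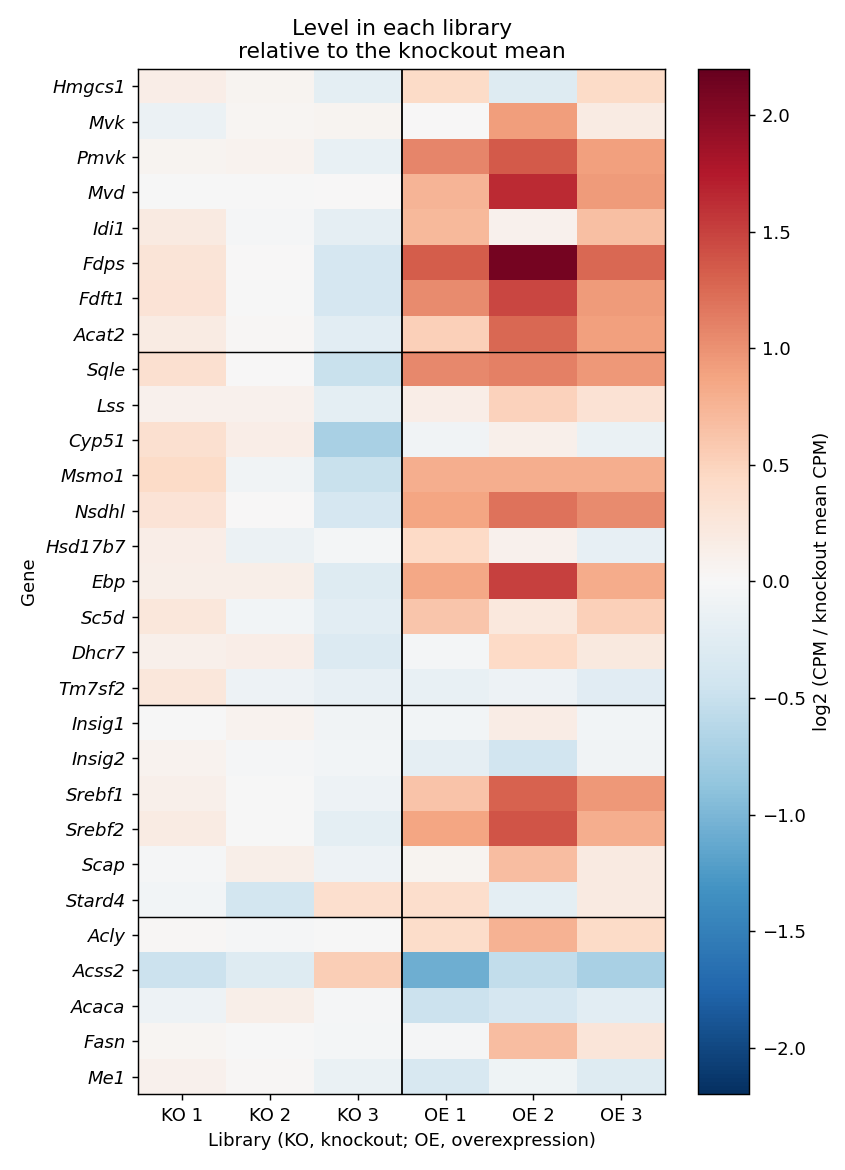
Level of each gene in each library as log2 of its CPM over the gene's knockout mean; red is above and blue below that mean. Overexpression replicate 2 is the darkest red column for Fdps, Mvd, Ebp and both SREBP genes but blue for Hmgcs1, and knockout replicate 3 is blue for most sterol genes.

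Among markers of lipid-making cell types, 8 of adipocytes and 7 of sebocytes were examined. The summed adipocyte level was 3.52 to 9.07 CPM with knockout and 0.427 to 0.778 CPM with overexpression. With knockout most of it was Fabp4, a fatty acid carrier that fell from 3.91 ± 1.65 to 0.144 ± 0.153 CPM (SD, n = 3 each; edgeR, adjusted p = 0.00192), while Lep had no counts in any library and Adipoq at most 2. The summed sebocyte level was 45.6 to 72.6 CPM with knockout and 9.40 to 17.0 CPM with overexpression. With knockout most of it was Mgst1, a glutathione transferase, which fell from 48.2 ± 11.1 to 6.90 ± 3.46 CPM (SD, n = 3 each; edgeR, adjusted p = 0.000487). Krt79 fell too, from 4.55 ± 3.11 to 0.323 ± 0.282 CPM (adjusted p = 0.00382). Of the other sebocyte genes, Awat1 had no counts, Far2 overlapped between the groups (adjusted p = 0.449), and Awat2, a wax synthase, was higher in every overexpression library, at 0.772 ± 0.184 against 0.418 ± 0.0299 CPM, without passing (adjusted p = 0.131). The part of these cell types in the members' levels was not tested.

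Per kilobase of annotated exon, the most abundant members with overexpression were Srebf1 at 42.0, Acly at 41.7, Ebp at 36.7 and Srebf2 at 36.3 CPM per kb. With knockout the order began with Acly at 28.7, Fasn at 22.6 and Srebf1 at 21.1 CPM per kb. Fdps moved from 8.76 to 26.9 CPM per kb. The lowest member in both groups was Acss2, at 0.965 and 0.569 CPM per kb. These lengths join the exons of all transcripts of a gene and so understate genes with many annotated isoforms.

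A further 31 genes of sterol and fatty acid handling were examined, of which 30 were tested and 8 were higher and 7 lower past the threshold, where 13.6% of all tested genes were higher and 18.0% lower. The median log2 fold change of the list was 0.039. Those that rose were the desaturases Fads2 and Fads1 (log2 fold changes 1.67 and 1.46), the mitochondrial fatty acid synthesis enzyme Mcat (1.01), the endosomal sterol carrier Stard3 (0.94), the citrate exporter Slc25a1 (0.82), the MAX-like factor Mlx (0.75), the sterol reductase and lamin receptor Lbr (0.63) and Nr1h2, the widely expressed LXR (0.55). Slc25a1, which exports the citrate that Acly splits, stood at 44.9, 48.2 and 38.3 CPM with knockout and 59.9, 106 and 66.0 CPM with overexpression (adjusted p = 0.0252). Its call was lost when any 1 of the knockout libraries was left out, and its adjusted p ran from 0.00148 without the filter to 0.562 under the epithelial scaling, where the sign turned. Lbr also lost its call without knockout replicate 1 or 2 (adjusted p up to 0.0738), Mlx without knockout replicate 3 (0.0692), and Nr1h2 without knockout replicate 1, 2 or 3 or overexpression replicate 3 (up to 0.14). Under the epithelial scaling the signs of these 3 turned too, with adjusted p-values of 0.222, 0.468 and 0.17. The count of higher genes in this list was 5 without knockout replicate 2 or 3. Under the epithelial scaling none of the 8 was higher past the threshold, 1 gene of the list was higher at an unadjusted p under 0.05 in edgeR, and 19 of the 30 were lower, where 58.9% of all tested genes were lower.

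The 7 that fell were Abca1, Vldlr, Scd1, Lipa, Npc2, Nr1h3 and Acacb. The sterol exporter Abca1 went from 45.8, 80.1 and 80.0 CPM with knockout to 4.24, 2.27 and 5.49 CPM with overexpression (log2 fold change -4.09, standard error 0.36, adjusted p = 5.59e-05). Vldlr, a lipoprotein receptor, went from 8.55 ± 3.61 to 0.182 ± 0.0462 CPM (SD, n = 3 each; log2 fold change -5.51, adjusted p = 5.09e-05), and the desaturase Scd1 from 16.3 ± 6.42 to 1.57 ± 0.956 CPM (log2 fold change -3.35, adjusted p = 0.00113). The lysosomal pair Lipa and Npc2, which free cholesterol from lipoprotein, had log2 fold changes of -1.51 and -0.86. Nr1h3, the other LXR, and Acacb, the mitochondrial carboxylase, were low in every library and had log2 fold changes of -1.81 and -2.15. These falls occurred in the same direction as the fall of the 10 fibroblast markers, whose median log2 fold change was -7.65, and the part of fibroblast RNA in them was not tested. All 7 were also lower past the threshold after epithelial scaling, as were 58.9% of all tested genes. That scaling moved the median over all tested genes from -0.016 to -1.055, so it is no separate support for these falls. Npc2 lost the threshold without knockout replicate 2 (adjusted p = 0.0512) or overexpression replicate 3 (0.0592), within a range of 2.04e-05 to 0.0592 over the alternatives.

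**Figure D4:**
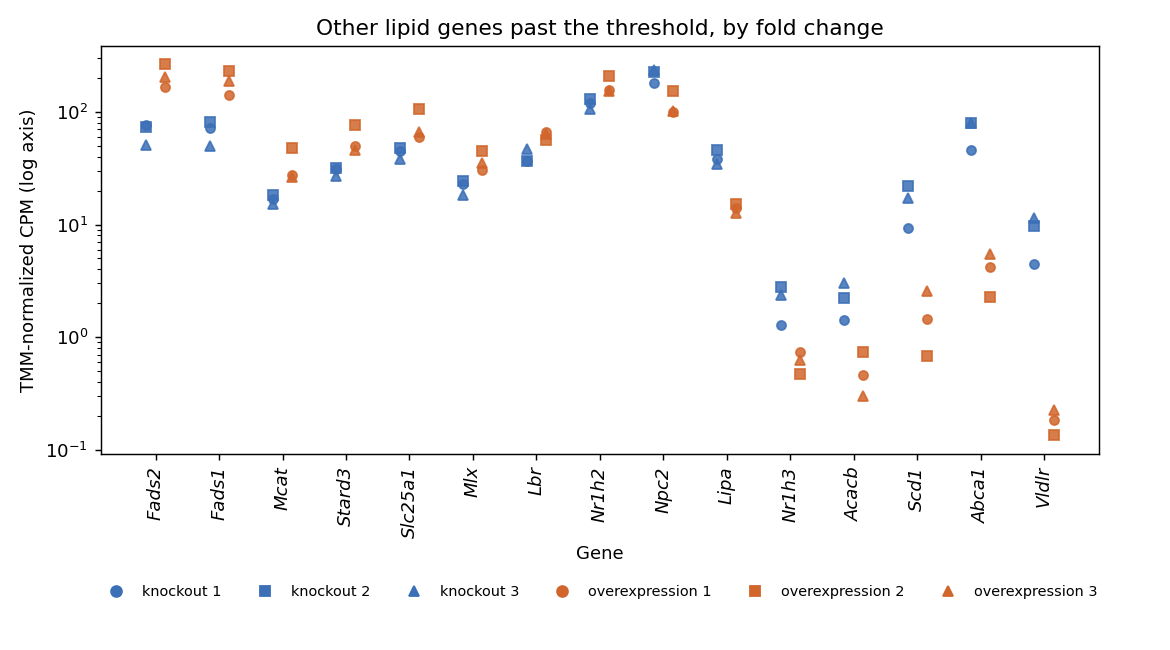
TMM-normalized CPM (log axis) in each library of the 15 further lipid genes past the threshold, ordered by fold change; blue points are knockout and orange points overexpression libraries. Fads2 and Fads1 lead the genes that rose, and Abca1 and Vldlr, at the right end, fell most. The groups do not overlap for any of the 15, which were picked by their adjusted p in these same libraries. Of all tested genes 24.4% lay wholly above and 26.5% wholly below with overexpression.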

How the data were processed

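The deposited values are whole-number raw counts for each gene, 1 column per library, and were matched to the labels through each sample's description. The submitters' processing notes name kallisto 0.44.0 and the build mm10, with no role given, and how the authors made the counts whole, their annotation and their strand setting are not given in the sources used here. Per the labels' protocols, RNA was taken with a column kit for small samples and libraries with a low-input kit. The 96 rows that name no mouse gene (at most 2.23e-05% of a library) were left out. Symbols came from GENCODE M21, as did positions (GRCm38) and exon overlaps. Copies were sought with blastn.

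After a filter on low counts (filterByExpr with min.count 10 and min.total.count 15), libraries were scaled by TMM and compared by quasi-likelihood in edgeR 4.0.16 (R 4.3.3), with all 6 libraries in 1 fit, the group as the only term, and Benjamini-Hochberg adjustment over all 18504 tested genes (threshold 0.05). The standard error is the log2 fold change divided by the square root of F. CPM are counts over the TMM-scaled library size, where 3 counts are 0.0759 to 0.101 CPM; this floor covers counting error only. The alternatives were RLE and upper-quartile scaling, scaling to the median ratio of 16 epithelial genes, no filter, robust dispersion, a block on the replicate number, DESeq2 1.42.0, each library left out in turn, and the shorter sterol motif. The members, lists, alternatives and rules were chosen with earlier results of these data known. Per-library values are given for members past the threshold with groups that do not overlap, for the SREBP regulators and for members whose call 1 library or the scaling decides; other lipid genes are named where they passed, and other names were chosen with their values in view. No sequencing batch is in the labels.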

Additional observations from a re-analysis of the deposited data

How the results depend on the processing

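All 29 genes kept their direction and their side of the threshold under RLE scaling, DESeq2, no filter and robust dispersion, and the count of 12 higher and 0 lower members was also the same under upper-quartile scaling. Leaving out 1 library gave 10 to 14 higher members. The count of all genes that were higher was then 1446 to 2599, that of the other lipid genes 5 to 10. The replicate numbers did not pair the libraries: deviations of same-numbered libraries had correlations of 0.0508, 0.0223 and -0.0399, and not every library correlated best with its own number. With the number as a replicate block 12 members were higher, and Cyp51 turned from -0.029 to 0.033, far from the threshold. Near-zero log2 fold changes also turned sign when 1 library was left out: Cyp51 (-0.28 to 0.20), Hsd17b7 (-0.013 to 0.29), Insig1 (-0.038 to 0.082) and Stard4 (-0.014 to 0.38). Insig1 was -0.039 under upper-quartile scaling.

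Scaling to the epithelial genes changed most. It left 0 members higher and 11 lower, 375 genes of all higher and 10894 lower, 0 other lipid genes higher and 19 lower, and a member median of -0.64. It turned the log2 fold changes of Hmgcs1 (-0.79), Mvk (-0.64), Idi1 (-0.495), Acat2 (-0.103), Lss (-0.69), Msmo1 (-0.18), Hsd17b7 (-0.88), Sc5d (-0.54), Dhcr7 (-0.802), Insig1 (-1.014), Srebf1 (-0.054), Scap (-0.696), Stard4 (-0.952), Acly (-0.51) and Fasn (-0.72), and of Lbr (-0.45), Nr1h2 (-0.48), Stard3 (-0.087), Slc25a1 (-0.207), Mcat (-0.018) and Mlx (-0.26). The scaling sets the median of the epithelial genes, 1.039 on the log2 scale under TMM, near 0. Sox2 itself stayed at 5.59. With the shorter sterol core, 3 members held the motif in place of 1. The cause of the other changes was not tested. Depth set no limit on detecting the members: Acss2, the lowest, had 153 counts in the library where it was lowest.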

Other observations

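The proteases that release SREBP in the Golgi did not pass the main edgeR test. Mbtps1, the first to cut, had 233, 220 and 219 CPM with knockout and 280, 384 and 270 CPM with overexpression. The overexpression libraries were all higher, and the log2 fold change was 0.47 (edgeR, adjusted p = 0.0709). The adjusted p of Mbtps1 ranged from 0.0431 to 0.178 over the alternatives, and leaving out 1 library never made it pass. Mbtps2, which cuts next within the membrane, differed by 0.26 on the log2 scale (adjusted p = 0.294), and passed without overexpression replicate 2 (adjusted p = 0.0417), within a range of 0.0417 to 0.532 over the alternatives. Soat1, which esterifies cholesterol for storage, stood at 65.9 to 73.1 CPM with knockout and 66.7 to 78.5 CPM with overexpression (adjusted p = 0.67). The desaturase Scd2 stood at 262 to 311 CPM with knockout and 240 to 329 CPM with overexpression (adjusted p = 0.972), while Scd1 fell. Scaled to the epithelial genes, Mbtps2, Soat1 and Scd2 were lower past the threshold, with log2 fold changes of -0.77, -0.97 and -1.044 (adjusted p = 0.0467, 0.0106 and 0.00567), where 58.9% of all tested genes were lower. The difference between the 2 desaturases was not tested.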
